A study of Rattus norvegicus with 2 samples.

Results

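Complement components and regulators were followed across the cell classes of the rat carotid artery. The 9 genes were C1qa, C1qb, C1qc, C1r, C1s, C3, Cfb, Cfd and Serping1, chosen by symbol, and all 9 were among the 32623 features of the deposited table. Cfb was listed under 2 Ensembl identifiers, so the set had 10 identifiers in all.

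Single-cell RNA was measured in 2 libraries of male Sprague-Dawley rats (strain SD, 12 weeks old in the labels). The control library held the untreated left carotid arteries of 2 rats, pooled, and the case library held the right carotid arteries of the same 2 rats, pooled, taken 28 days after balloon injury. Balloon injury strips and stretches the vessel wall and is used as a model of vessel renarrowing. Each group was thus 1 library, and no test between groups was possible. The rats within a pool cannot be told apart, and neither can side, library and injury.

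Complement is a cascade of plasma and tissue proteins. C1q, built from the C1qa, C1qb and C1qc chains, recognises antibody and altered surfaces and activates the serine proteases C1r and C1s. C1s cleaves C4 and C2, so that C3 is cleaved in turn. Factor B (Cfb) and factor D (Cfd) drive the alternative pathway that amplifies C3 cleavage, and C1 inhibitor (Serping1) inactivates C1r and C1s. Tissue macrophages are a known source of C1q, while fibroblasts are a known source of C1r, C1s and C1 inhibitor.

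RefSeq places C1qa, C1qc and C1qb next to each other on 1 chromosome with no other annotated gene between them, and C1r next to C1s. The table of promoters from RefSeq held 5 of the 9 genes. The 250 bases before the start of 4 of them are shown. The first pair, C1qa and C1qb, have only C1qc between them and were detected in the same cells. Cfd was found in those cells without lying near them, and C1r was highest in another class. Positions are of build GRCr8, which is not the build of the count table. C1qa is on the minus strand at chr5:154419934-154420183, C1qb on the minus strand at chr5:154407828-154408077, Cfd on the minus strand at chr7:10465497-10465746 and C1r on the plus strand at chr4:159098763-159099012. Capitals mark matches, on either strand, to GAGGAA (the core bound by PU.1, a myeloid factor encoded by Spi1), TTCNNNGAA (STAT factors), the IRF motif of GAAA repeated after a gap of 2 bases, or TATAAA (core promoter box).
C1qa: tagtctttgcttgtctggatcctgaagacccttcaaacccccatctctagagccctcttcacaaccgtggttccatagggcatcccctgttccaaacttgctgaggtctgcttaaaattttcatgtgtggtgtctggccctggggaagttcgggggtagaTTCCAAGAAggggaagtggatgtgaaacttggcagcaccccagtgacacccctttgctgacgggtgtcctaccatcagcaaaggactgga
C1qb: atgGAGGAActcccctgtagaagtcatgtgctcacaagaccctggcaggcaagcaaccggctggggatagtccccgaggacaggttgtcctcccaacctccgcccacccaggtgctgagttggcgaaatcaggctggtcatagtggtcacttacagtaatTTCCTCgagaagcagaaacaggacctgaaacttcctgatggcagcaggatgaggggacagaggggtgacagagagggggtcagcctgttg
Cfd: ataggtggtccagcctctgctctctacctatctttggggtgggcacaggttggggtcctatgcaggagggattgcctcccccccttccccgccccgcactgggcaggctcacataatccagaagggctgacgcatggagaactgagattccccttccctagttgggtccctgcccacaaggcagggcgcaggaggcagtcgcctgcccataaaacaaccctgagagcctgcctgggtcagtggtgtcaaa
C1r: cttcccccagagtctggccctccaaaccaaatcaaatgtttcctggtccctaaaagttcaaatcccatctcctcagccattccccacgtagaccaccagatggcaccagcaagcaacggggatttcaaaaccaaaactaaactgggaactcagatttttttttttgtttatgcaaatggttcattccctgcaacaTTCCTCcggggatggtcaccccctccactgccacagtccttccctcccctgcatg
C1qb held 2 matches to GAGGAA and C1r 1, while C1qa held 1 match to TTCNNNGAA and Cfd none of the 4 motifs. GAGGAA occurred in 23.3% of the 33469 promoter windows of the same length, TTCNNNGAA in 7.67%, the IRF motif in 3.41% and TATAAA in 12.9%. The windows thus shared no motif that set the C1q pair apart, and no match says only that these letters are not in the window.

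After filtering, 2742 of 3321 control barcodes and 4930 of 5656 case barcodes were kept, with medians of 8880 and 5156 UMIs. A UMI (unique molecular identifier) stands for 1 captured RNA molecule. Cells were placed in classes by marker genes that include no complement gene. Summed marker UMIs set the VSMC-like and fibroblast-like classes, and the number of markers detected set the others. VSMC-like (vascular smooth muscle) cells numbered 1072 in the control and 2499 in the case library, fibroblast-like cells 707 and 1402, endothelial-like cells 54 and 228, macrophage-like cells 47 and 115, and Schwann-like cells 18 and 45. The remaining 844 control and 641 case cells were ungated, 513 and 40 of them for having under 1000 UMIs. Macrophage-like cells held all 10 markers of their list, at a sum of 8333 CPM in control and 8869 in case, against 0 to 20.4 CPM in the other classes. Levels are given as CPM, which is a gene's summed UMIs in a class divided by all UMIs of that class, times 1000000. Intervals in parentheses are exact 95% Poisson or binomial intervals and cover counting error only, not differences between rats or libraries. Those of CPM and of ratios pool the UMIs of a class and also leave out the spread between cells. A level is relative to the UMIs of its own class and does not give an amount per artery. Different clusters held most of the VSMC-like cells in the 2 libraries, namely clusters 6 and 15 in control and clusters 1 and 2 in case.

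Among the named classes, the genes of C1q were found in macrophages and almost nowhere else. In macrophage-like cells C1qa stood at 1089 CPM (989.8 to 1195) in control and 1721 (1618 to 1828) in case. C1qb stood at 1390 (1278 to 1510) and 1902 (1794 to 2014), and C1qc at 1339 (1229 to 1456) and 1906 (1798 to 2019). All 3 chains were higher in the case library, and their intervals did not overlap between the libraries. Of the 7 members compared in this class 5 were higher in case without overlap (the 3 chains, C3 and Cfd), where 7.94% of all 4370 genes were. C3 reached the limit of 20 CPM for this comparison through the case library alone. Intervals also separate more readily at high counts, and the chains and Cfd had 282 to 1161 UMIs per library. The 2 shares are therefore not alike and are not read as an enrichment. In the other named classes none of the 3 passed 2.38 CPM in either library, while in ungated cells C1qa stood at 19.5 CPM in control and 85.0 in case. The value of 2.38 was that of C1qa in 54 control endothelial-like cells, from 1 UMI (0.0603 to 13.3). C1qb and C1qc had no UMI there, which allows up to 7.15 CPM. The gate barred cells with 3 or more macrophage markers from those other classes, so their low C1q was in part set by it. Schwann-like cells had no C1q UMI in either library, which allows up to 34.0 CPM in control and 20.4 in case.

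**Figure D1:**
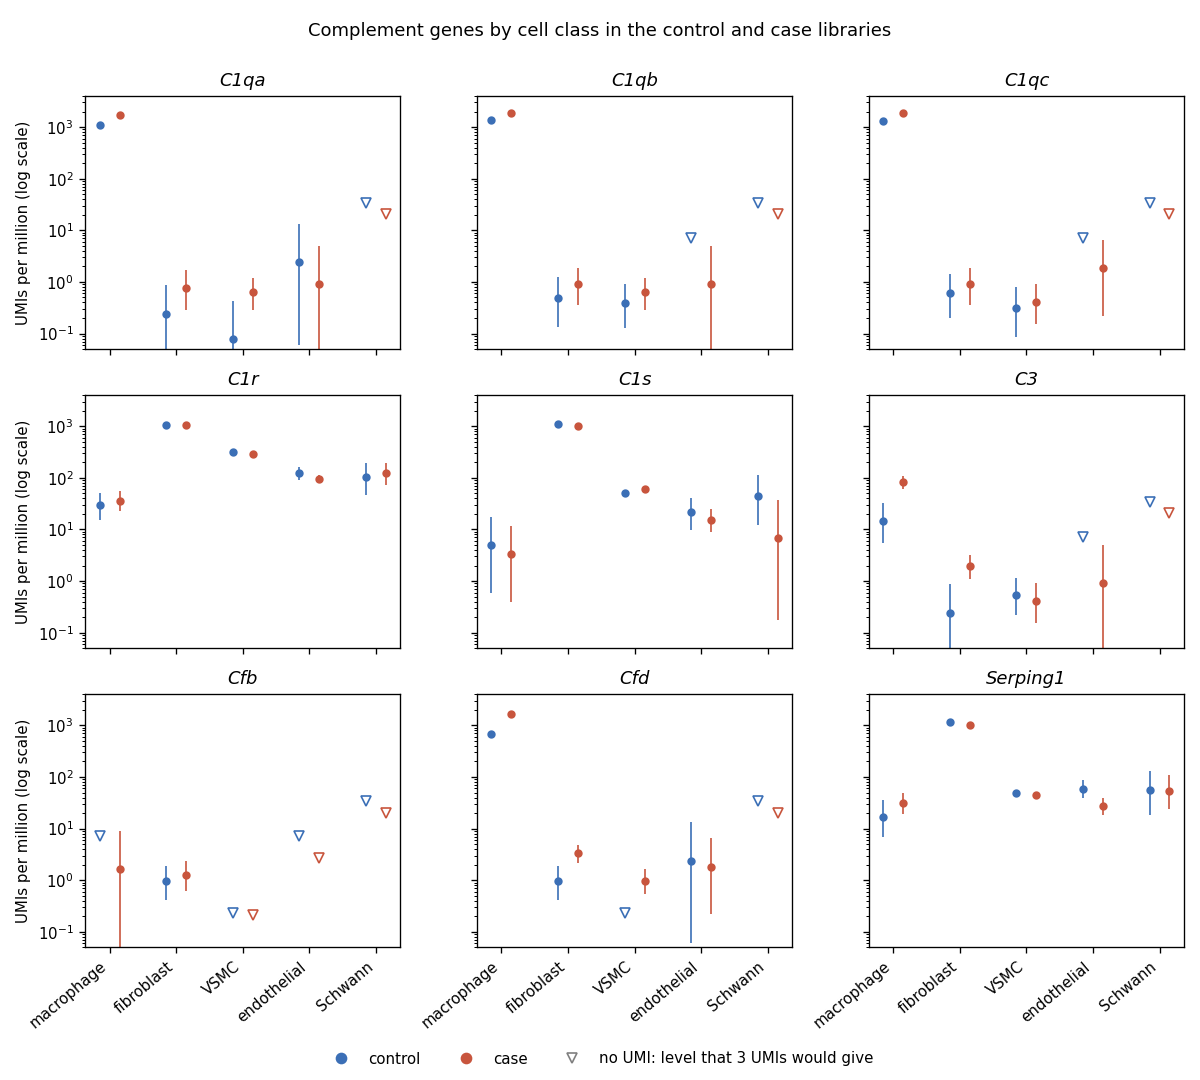
Level of each of the 9 genes (CPM, log axis) in 5 cell classes of the control (blue) and case (red) library, with exact 95% Poisson intervals, some of which run below the axis. Open triangles stand for classes without a UMI and mark the level that 3 UMIs would give, and Cfb is drawn for the identifier with UMIs. The C1q genes and Cfd stand above 600 CPM in macrophages alone, while C1r, C1s and Serping1 are highest in fibroblasts.

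Macrophage-like cells held 91.4% of the C1q UMIs of all kept control cells and 80.7% of those of kept case cells. C1qa was detected in 68.1% (52.9 to 80.9) of control and 74.8% (65.8 to 82.4) of case macrophage-like cells, where the median cell had 8768 and 4930 UMIs. Among VSMC-like cells, which are not known to make C1q, the shares were 0.0933% (0.00236 to 0.519) and 0.280% (0.113 to 0.576), where the median cell had 12333 and 5491 UMIs. With every cell thinned to 1000 UMIs, C1qa was detected in 44.7% (30.2 to 59.9) and 55.7% (46.1 to 64.9) of the macrophage-like cells, and C1qb in 59.6% (44.3 to 73.6) and 59.1% (49.6 to 68.2). The shares of both genes overlapped between the libraries at equal depth, as those of C1qa already did before thinning.

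The 3 chains were found together in single macrophages. All 3 were detected in 32 of 47 control and 79 of 115 case macrophage-like cells, while 13 and 22 cells had none. A control cell held a median of 35 C1q UMIs and at most 105, and a case cell a median of 20 and at most 181. Across cells, Spearman's rho was between 0.753 and 0.895 for the 3 pairs of chains in control (47 cells) and between 0.828 and 0.855 in case (115 cells). After thinning to 1000 UMIs it was 0.419 to 0.636 and 0.544 to 0.591. These are descriptions over cells of 1 library that share depth and free RNA.

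Macrophages without C1q were mostly those without Mrc1, a mannose receptor of resident-type macrophages that was 1 of the 10 gating markers. Mrc1 was detected in 34 of the 47 control and 73 of the 115 case cells. Cells with Mrc1 held 1455 CPM of C1qa in control and 2333 in case, a log2 ratio of 0.68 (0.51 to 0.85). Cells without Mrc1 held 313 and 342 CPM, a log2 ratio of 0.13 (-0.46 to 0.73). C1qb and C1qc followed the same split, at 1842 and 1791 CPM in control cells with Mrc1 against 436 and 382 without it. In case cells the values were 2577 and 2587 against 379 and 374. The higher class level in case was thus measured in the cells with Mrc1, and whether the ratios of the cells with and without Mrc1 differ was not tested. Detection of Mrc1 also depends on depth. The cells with Mrc1 had medians of 8386.5 UMIs in control and 5152 in case, and those without it 9800 and 4106.

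As log2 ratios of case over control, C1qa was at 0.66 (0.50 to 0.82), C1qb at 0.45 (0.31 to 0.60) and C1qc at 0.51 (0.36 to 0.66) in macrophage-like cells. Across the 4370 genes whose mean of the libraries reached 20 CPM in this class, the median was 0.06. None of the 3 chains reached a 2-fold difference. These ratios weight cells by their UMIs. When each cell counted equally, the log2 ratios were 0.40, 0.20 and 0.29. After thinning to 1000 UMIs that of C1qb was -0.17, so the direction of C1qb was not kept under that setting. The thinned value is from 1 random draw, and its counting error was not computed.

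A few cells outside the macrophage class also carried C1q. With at least 5 C1q UMIs there were 5 control cells (0.186% of 2695, 0.0603 to 0.432) and 14 case cells (0.291% of 4815, 0.159 to 0.487). Of these, 5 and 13 were ungated, and 5 and 13 had at least 3 macrophage markers. Markers of VSMC passed their limit in 3 and 10 of them, and fibroblast markers theirs in 2 and 3. Their median depths of 19874 and 8709 UMIs exceeded the library medians. Whether they were doublets was not tested, since Scrublet called 6 cells in all.

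The serine proteases C1r and C1s and their inhibitor Serping1 were highest in fibroblasts. In fibroblast-like cells C1r stood at 1080 CPM (1057 to 1102) in control and 1038 (1016 to 1061) in case. C1s stood at 1115 (1092 to 1138) and 1024 (1002 to 1047), and Serping1 at 1154 (1131 to 1178) and 1037 (1014 to 1060). The log2 ratios were -0.06, -0.12 and -0.15, close to the median of -0.07 over the 4413 genes tested in this class. All 3 genes were slightly lower in the case library, by less than 2-fold. For C1r the direction was not kept, with log2 ratios of 0.03 under a stricter gate and 0.01 under TMM scaling, which sets the bulk of genes to no difference. Fibroblast-like cells held 63.1% of the C1r UMIs, 87.5% of the C1s UMIs and 88.6% of the Serping1 UMIs of all kept control cells, and 58.1%, 80.0% and 82.9% of those of kept case cells.

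C1r was spread more widely than its partner C1s. In VSMC-like cells C1r reached 322 CPM (312 to 332) in control and 291 (283 to 300) in case. C1s reached 51.6 (47.8 to 55.7) and 61.9 (57.9 to 66.1), and Serping1 49.5 (45.7 to 53.5) and 44.0 (40.6 to 47.5). There were 6.23 (5.73 to 6.77) C1r UMIs for each C1s UMI in control and 4.71 (4.38 to 5.07) in case VSMC-like cells, compared with 0.968 (0.940 to 0.997) and 1.01 (0.983 to 1.05) in fibroblast-like cells. Each UMI counts 1 captured molecule whatever the transcript's length, but capture can differ between genes, so only the change of this ratio between classes is read.

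The levels in VSMC-like cells were also set against those of other fibroblast genes. C7, a component of the membrane attack complex that was not used for gating, stood at 0.427% (0.312 to 0.570) of its fibroblast level in control VSMC-like cells and at 0.471% (0.326 to 0.660) in case VSMC-like cells. In the same cells C1r stood at 29.8% and 28.1% of its fibroblast level, C1s at 4.63% and 6.04%, and Serping1 at 4.29% and 4.24%. All 3 were above the share of C7. Fibroblast markers, on which the gate sets a limit, stood at 6.825% and 7.005% of their fibroblast level, which is below the share of C1r and above those of C1s and Serping1. They summed to 3670 CPM in control and 3195 in case VSMC-like cells, compared with 53776 and 45610 for fibroblast-like ones, and the part of cells holding RNA of both types in these levels was not tested. With a stricter gate (VSMC markers at 1.0% of UMIs or more, fibroblast markers at most 20% of both lists), C1r stood at 308 and 275 CPM in VSMC-like cells, C1s at 45.3 and 47.1, and Serping1 at 46.9 and 39.3.

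Of the 3 genes at 20 CPM or more in VSMC-like cells, C1s alone was higher in case, at a log2 ratio of 0.26 (0.11 to 0.41). C1r was at -0.14 (-0.20 to -0.08) and Serping1 at -0.17 (-0.33 to -0.01), beside a median of -0.13 over the 4753 genes tested in this class. The log2 ratio of C1s was 0.06 under the stricter gate and 0.45 with classes from clusters. That of Serping1 was 0.02 with classes from clusters. VSMC-like cells with at least 2 UMIs of Spp1, which encodes osteopontin, held 54.5 CPM of C1s in control and 75.3 in case, and those below this limit 45.1 and 53.6. C1r in the cells with Spp1 stood at 337 and 321 CPM, against 287 and 273 in the others. Both genes were thus somewhat higher in the cells with Spp1, which were also deeper, with medians of 13698 against 9797 UMIs in control and 6094 against 5163 in case. A split by Notch1, which encodes a receptor of cell to cell signalling, gave 314 against 324 CPM of C1r in control and 258 against 296 in case.

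Fibroblasts differed among themselves. Cells with at least 2 UMIs of Pi16, a marker of adventitial fibroblasts, were 82.9% of the fibroblast-like cells in control and 45.0% in case, shares that also depend on depth. In the cells with Pi16, C1r stood at 1093 CPM (1069 to 1118) in control and 1214 (1179 to 1249) in case. In the cells below this limit C1r stood at 997 (940 to 1056) and 871 (843 to 901). C1r was thus higher in the case library among the cells with Pi16, at a log2 ratio of 0.15 (0.10 to 0.20). Among the others it was lower, at -0.19 (-0.29 to -0.10). The cells with Pi16 had medians of 11838.5 UMIs in control and 5755 in case, and the others 9896 and 4716. A fixed limit of 2 UMIs therefore selects unlike cells in the 2 libraries, and its part in these ratios was not tested. Serping1 stood at 1199 and 1247 CPM in the cells with Pi16 and at 879 and 837 in the others. C1s stood at 1138 and 1137 CPM against 971 and 917. All 3 genes were higher in cells with Pi16 within each library, by log2 differences from 0.13 for C1r in control to 0.57 for Serping1 in case. The lower class levels in case therefore went with a smaller share of cells over the Pi16 limit, and its part in the result was not tested.

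**Figure D2:**
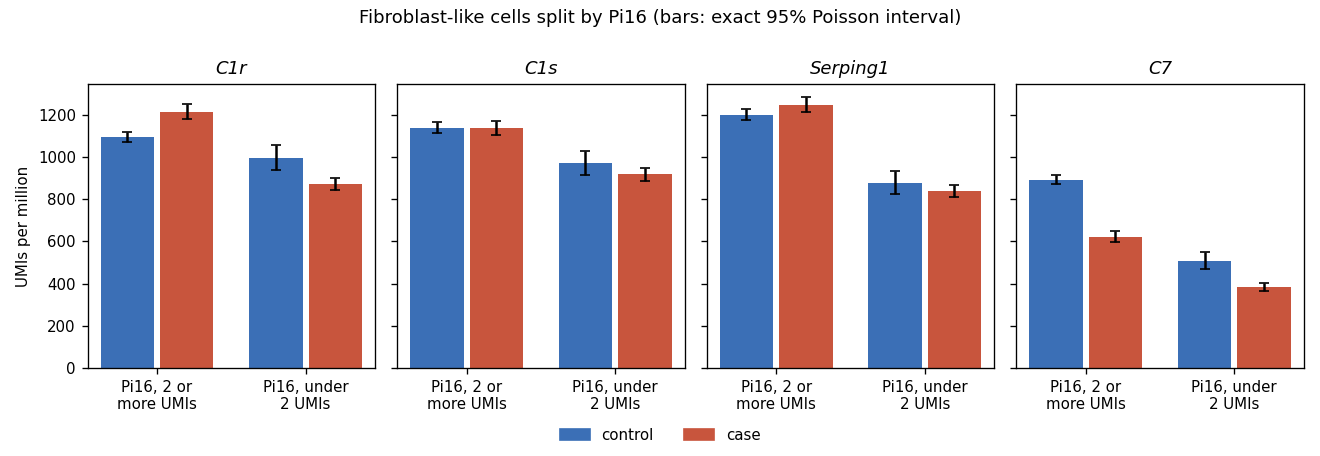
Level of C1r, C1s, Serping1 and C7 (CPM, axis from 0) in fibroblast-like cells of the control (blue) and case (red) library with 2 or more UMIs of Pi16 and with fewer, with exact 95% Poisson intervals. C1r is at 1093 and 1214 CPM in the cells with Pi16 and at 997 and 871 in the others, and C7 is lower in the case library in both.

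Cells with at least 2 UMIs of Postn, which encodes periostin, an extracellular protein of wound repair, were 17 of the control and 183 of the case fibroblast-like cells. In the case library they held 1006 CPM of C1r, 983 of C1s and 896 of Serping1, against 1045, 1033 and 1065 CPM in the other fibroblast-like cells. In case the log2 differences of C1r and C1s were -0.06 (-0.14 to 0.03) and -0.07 (-0.16 to 0.02), while Serping1 was lower at -0.25 (-0.34 to -0.16). In control, from 17 cells with Postn, all 3 were lower in these cells, with log2 differences of -0.35 (-0.60 to -0.11), -0.42 (-0.67 to -0.18) and -0.45 (-0.70 to -0.21). The substrates C2 and C4b went the other way. C4b stood at 130.3 CPM (111 to 152) in case cells with Postn and at 34.7 (30.3 to 39.5) in the others, and C2 at 85.8 (70.5 to 103) and 25.1 (21.4 to 29.3). C4b has the near-identical copy C4a and C2 lies beside Cfb, and how well reads were told apart between these genes was not tested.

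Fibroblast-like cells were also split by Gfpt2, which encodes an enzyme of hexosamine synthesis. In case cells with at least 2 UMIs of Gfpt2, C1r stood at 1048 CPM against 1017 in the others, C1s at 1055 against 956 and Serping1 at 1092 against 912. The log2 differences in case were 0.04 (-0.03 to 0.11), 0.14 (0.07 to 0.21) and 0.26 (0.19 to 0.33), so there the interval of C1r alone included 0. In control they were -0.04 (-0.12 to 0.03), 0.07 (-0.002 to 0.14) and 0.10 (0.03 to 0.17), and the intervals of C1r and C1s included 0. The cells with Gfpt2 were also deeper, with medians of 13131 against 7426.5 UMIs in control and 6158 against 3944 in case.

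In endothelial-like cells C1r stood at 122 CPM (90.5 to 160) in control and 95.7 (78.3 to 116) in case. Serping1 stood at 59.6 (38.5 to 87.9) and 27.3 (18.4 to 39.0), from 25 and 30 UMIs. C1s had 9 and 17 UMIs. Serping1 was thus lower in case, at a log2 ratio of -1.12 (-1.94 to -0.30), and C1r at -0.34 (-0.84 to 0.17) did not differ beyond counting error. The class held 54 control cells, 85.2% of them in cluster 10, and 228 case cells, 48.2% in cluster 10 and 50.9% in cluster 5. Within cluster 10 Serping1 stood at 62.3 CPM (39.5 to 93.5) in control and 13.9 in case, from 8 UMIs. Within cluster 5 it stood at 39.6 CPM in 8 control cells, from 2 UMIs, and at 43.7 (27.4 to 66.1) in case. With cells assigned by clusters in place of the gate, the log2 ratio of Serping1 was 0.15.

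In macrophage-like cells the fibroblast genes were near the lower end of detection. C1r stood at 29.4 CPM (15.2 to 51.4) in control and 36.1 (22.6 to 54.7) in case, and Serping1 at 17.2 (6.90 to 35.4) and 31.2 (18.8 to 48.7). C1s had 2 UMIs in each library. Under the settings of the stricter gate C1r stood at 74.7 and 53.5 CPM and Serping1 at 48.9 and 53.5, and C1s had 18 and 9 UMIs. The direction of C1r was thus not kept. For this class that gate asks for 6 markers but raises the VSMC and fibroblast limits to 1.0% and 2.0%. It thereby admits cells with more RNA of those types, so for these genes it is not a stricter check. In Schwann-like cells C1r stood at 102 CPM (46.6 to 194) in control and 123 (72.7 to 194) in case, and Serping1 at 56.6 (18.4 to 132) and 54.5 (23.5 to 107). The order of C1r in control was fibroblast-like, VSMC-like, endothelial-like, Schwann-like and macrophage-like, and the intervals of Schwann-like cells overlapped those of both neighbours.

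C3, the protein on which all pathways converge, was nearly absent. It had 20 UMIs in all control barcodes and 87 in all case barcodes. In macrophage-like cells it had 6 UMIs in control, or 14.7 CPM (5.40 to 32.0), and 50 in case, or 82.1 CPM (60.9 to 108), a log2 ratio of 2.48 (1.26 to 3.99). It was found in 4 of 47 control and 22 of 115 case macrophage-like cells, at most 3 and 6 UMIs in a cell, and 3 and 20 of these cells also had C1q. Among cells with Mrc1 the C3 UMIs were 2 in control and 47 in case, and among cells without Mrc1 4 and 3. The higher level in case thus lay in the cells with Mrc1. In fibroblast-like cells C3 had 2 and 15 UMIs, or 0.243 CPM (0.0295 to 0.879) and 1.93 (1.08 to 3.19).

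Of the alternative pathway, factor D and properdin were found in macrophage-like cells, and factor B hardly at all. Properdin (Cfp), which stabilises the C3 convertase and is on the wider list, stood at 51.5 CPM (31.9 to 78.7) in control and 98.5 (75.2 to 127) in case macrophage-like cells, a log2 ratio of 0.94 (0.20 to 1.73). In the cells without Mrc1 Cfp stood at 76.4 and 134 CPM and in those with it at 39.7 and 83.0, with overlapping intervals within each library. Cfb had 19 UMIs under 1 identifier, 18 of them in fibroblast-like cells (8 in control, 10 in case), and none under the other. Cfd, the protease that activates factor B, stood in macrophage-like cells at 692 CPM (613 to 777) in control and 1649 (1548 to 1754) in case, a log2 ratio of 1.25 (1.06 to 1.45). In VSMC-like, endothelial-like and fibroblast-like cells it did not pass 3.35 CPM, and in ungated cells it stood at 5.50 and 58.9 CPM. Cells with 3 or more macrophage markers were barred from the VSMC-like, endothelial-like and fibroblast-like classes here too. Cfd is best known as adipsin of fat cells. Markers of adipocytes summed to 0.312 to 9.53 CPM in those 3 classes and 0 in macrophage-like and Schwann-like cells. They were not used for gating, so no adipocyte class could arise, and they were not summed in ungated cells. Whether fat cells added to Cfd was not tested.

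Cfd and C1q were found in the same macrophages. At least 5 UMIs of Cfd were present in 12 control and 42 case macrophage-like cells, and all 12 and 41 of the 42 also held all 3 C1q chains. Spearman's rho between Cfd and the C1q sum over cells was 0.678 in control and 0.692 in case, and 0.507 and 0.564 after thinning. Cells with Mrc1 held 935 CPM of Cfd in control and 2314 in case, while cells without it held 176 and 150. Cfd was detected in 74.5% (59.7 to 86.1) of control and 63.5% (54.0 to 72.3) of case macrophage-like cells. The median cell had 2 Cfd UMIs in both libraries. With every cell thinned to 1000 UMIs the shares were 29.8% (17.3 to 44.9) and 40.9% (31.8 to 50.4), so they overlapped. In control, 58.9% of the Cfd UMIs of the class lay in 5 cells, and in case 32.0%, so the control level rests on few cells. When each cell counted equally the log2 ratio was 1.11. After thinning to 1000 UMIs, in 1 random draw without an interval, it was 0.86, which is under 2-fold.

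**Figure D3:**
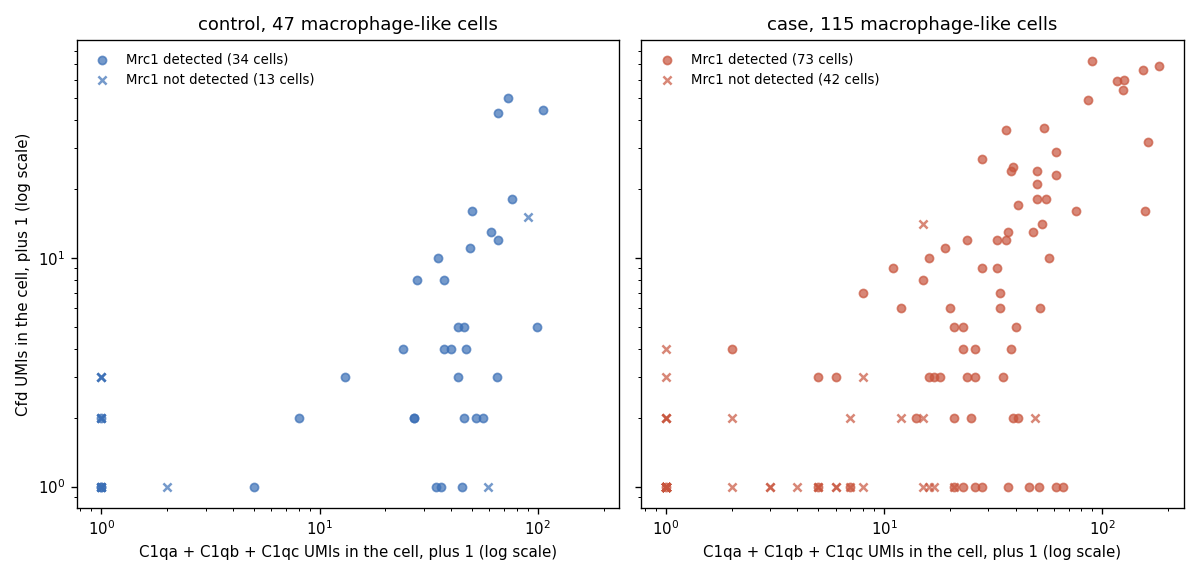
UMIs of Cfd against summed UMIs of C1qa, C1qb and C1qc in each macrophage-like cell of the control (47 cells, left) and case library (115 cells, right), both plus 1 on log axes, with circles for cells in which Mrc1 was detected and crosses for the others. Cells with 5 or more Cfd UMIs all held C1q in both libraries, some of them below the class median of C1q UMIs. Most cells without Mrc1 lie at the lower left.

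With a mean of at least 20 CPM, 7 of the 10 identifiers could be compared in macrophage-like cells, and 2 of them, C3 and Cfd, differed by 2-fold or more, both higher in case. C3 and Serping1 reached the limit through the case library alone, so the entry of C3 into this count depended on its difference, and 5 members reached 20 CPM in both libraries. Among all genes tested in this class 13.5% differed by 2-fold or more in either direction and 8.58% were 2-fold or more higher in case. In endothelial-like cells 1 of 2, Serping1, was 2-fold or more lower, where 22.7% of all genes differed by 2-fold or more and 14.0% were that much lower. In VSMC-like cells 0 of 3 did so, with 3.45% of all genes, and in fibroblast-like cells 0 of 3, with 4.31%. With so few genes compared, these shares are descriptions of 2 libraries. The remaining identifiers in each class did not reach the limit of 20 CPM.

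**Figure D4:**
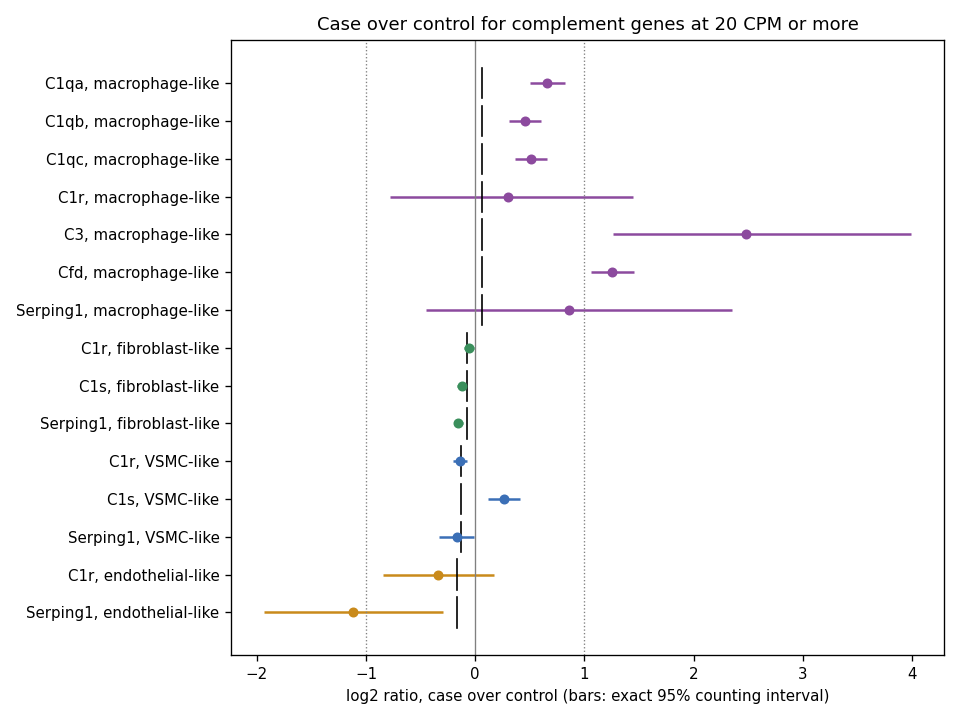
Log2 ratio of the case over the control library for each complement gene with a mean of at least 20 CPM in a class, with exact 95% counting intervals. Black ticks mark the median of all genes tested in the class and dotted lines a 2-fold difference. C3 and Cfd in macrophage-like cells lie above the upper line and Serping1 in endothelial-like cells below the lower one.

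Of a wider list of 41 complement genes, 40 were listed, 13 reached 100 CPM in a named class, 23 stayed under 20 CPM in every named class and 3 had no UMI in any. Between the libraries 0 of 5 differed by 2-fold or more in VSMC-like cells, 1 of 9 in fibroblast-like cells (C2, higher in case), 1 of 7 in endothelial-like cells (Colec12, lower in case) and 6 of 15 in macrophage-like cells (C6, Cd55, Clu, Cr1l, Fcna and Itgb2, all higher). Of all genes, 3.45%, 4.31%, 22.7% and 13.5% did so in the same classes, and 8.58% were that much higher in macrophage-like cells. C2 passed the limit through the case library alone, so its call followed in part from the limit. In case macrophage-like cells 74.6% of the Clu UMIs lay in 5 cells, with 34 of 59 in 1 cell. Clu was found in 19.1% of control and 17.4% of case macrophage-like cells, so its call rests on few cells. The median log2 ratio of the list was -0.13, -0.18, -0.41 and 0.94 in the 4 classes, beside -0.13, -0.07, -0.16 and 0.06 over all genes. C2, a substrate of C1s, stood at 7.42 CPM (5.68 to 9.53) in control and 35.2 (31.1 to 39.6) in case fibroblast-like cells.

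Terminal components were split between classes. C7 was a fibroblast gene, at 839 CPM (820 to 859) in control and 502 (486 to 518) in case, a log2 ratio of -0.74 (-0.80 to -0.69). It was lower both in cells with Pi16, at 893 and 624 CPM, and in the others, at 509 and 386. C6 stood at 24.5 CPM (11.8 to 45.1) in control and 314 (271 to 361) in case macrophage-like cells, from 10 and 191 UMIs, a log2 ratio of 3.68 (2.77 to 4.76). It was found in 6 of 47 and 29 of 115 cells, and 189 of the 191 case UMIs lay in cells with Mrc1. C5, C8a, C8b, C8g and C9 stayed under 20 CPM in every named class.

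Regulators were spread over the wall. Cd59, which blocks the membrane attack complex, stood at 795 and 607 CPM in VSMC-like cells and at 623 and 184 in Schwann-like cells, from 55 and 27 UMIs there. Cd55, which speeds the decay of C3 convertases, was a fibroblast gene at 161 and 144 CPM and stood at 24.5 and 69.0 in macrophage-like cells. Within case fibroblasts Cd55 was 232 CPM in cells with Pi16 against 59.1 in the others, and 198 in cells with Gfpt2 against 20.6. It was also higher in case cells with Postn, at 282 CPM against 116 in the others. In control it was 625 CPM in the 17 cells with Postn against 152.

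Clu (clusterin, an inhibitor of the terminal complex) was by far the highest gene of the wider list, at 15919 CPM in control and 12212 in case endothelial-like cells, compared with 925 and 1261 for VSMC-like ones. Within cluster 10 the endothelial-like cells held 17828 CPM (17400 to 18264) of Clu in control and 19392 (19034 to 19755) in case. In cluster 5 they held 1961 (1593 to 2387) in 8 control cells and 4327 (4147 to 4513) in case. Clu was thus higher in case within each cluster but lower in case over the class. The part of the share of cells in each cluster was not tested. Cr1l, a regulator related to complement receptors, stood at 179 and 135 CPM in endothelial-like cells and 41.7 and 98.5 in macrophage-like cells.

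Several receptors and recognition molecules were highest in macrophage-like or endothelial-like cells. In macrophage-like cells C5ar1, the receptor of C5a, stood at 103 CPM (74.2 to 139) in control and 128 (101 to 160) in case. Fcna (ficolin-A of the lectin pathway) stood at 228 (184 to 279) and 475 (421 to 533). The integrin chains of complement receptors stood at 108 and 249.6 CPM for Itgb2 and at 90.7 and 113 for Itgax. Fcna and Itgb2 were thus higher in case beyond counting error, while the intervals of C5ar1 and Itgax overlapped. Cd93, once described as a C1q receptor, stood at 572 (502 to 649) and 382 (346 to 420) in endothelial-like cells. Within cluster 10 Cd93 stood at 436 (371 to 509) and 395 (345 to 449), which overlapped, and within cluster 5 at 1564 (1239 to 1950) in 8 control cells and 379 (327 to 437) in case. Colec12, a scavenger receptor of the collectin family, and C1qbp, a mitochondrial protein that binds C1q, were spread over the classes, at up to 135 and 129 CPM.

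**Figure D5:**
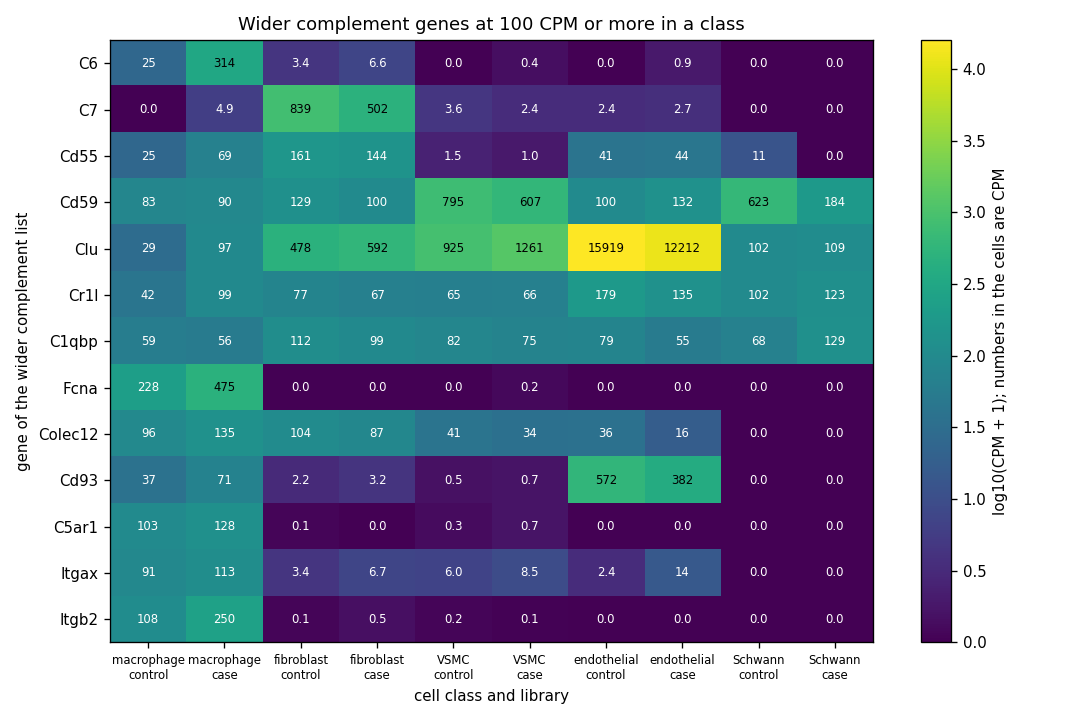
Level (CPM, printed in each field and coloured by log10 of CPM plus 1) of the 13 genes of the wider complement list that reached 100 CPM in a class, in 5 classes of the control and case library. Clu is highest in endothelial-like cells, Cd59 in VSMC-like cells, C7 in fibroblast-like cells and Fcna in macrophage-like cells.

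Over the 15 Leiden clusters with at least 50 cells, the genes most alike to each member were sought among 4971 genes by Pearson's r of log2(CPM + 10). The nearest genes were Nlrp3, Adgre1 and Ccl6 for C1qa (r of 0.998 to 0.999), Ms4a6a, Spi1 and Scimp for C1qb and RT1-Bb, Tyrobp and Cd53 for C1qc (each 0.999 or above). For Cfd they were Pla2g2d, Otulinl and Bcl2a1 (0.983 to 0.990) and for C3 Cxcl13, Slc11a1 and Ptpro (0.987 to 0.996). A single cluster of 188 cells, macrophage-like for the most part, held the high values of all 5 genes, so these coefficients rest on that 1 point. C1s was nearest to Serping1 (0.982), Pcolce and Gsn, Serping1 to C1s, Gsn and Islr, and C1r to Mmp2 (0.970), Adamts2 and Lum. C1s and Serping1 ranged over 38.5 to 1079 and 44.4 to 1134 CPM across the clusters, and the clusters share libraries and depth.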

How the data were processed

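Cells of carotid arteries were profiled on the 10x Genomics platform. The authors deposited raw UMI counts per gene and barcode. The submitters' processing notes name Seurat and build Rnor_6.0, and the header of the deposited counts names Cell Ranger 3.1.0. Barcodes were assigned to libraries by suffix, from the numbers of barcodes stated for each library (3321 and 5656). The same barcode sequence occurred in both libraries 21 times, and 9 times after filtering.

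Barcodes with over 20% mitochondrial UMIs were left out, as were those more than 2 SD from their library's mean in log10 UMIs or log10 genes, or more than 3 robust SD from the line of genes on UMIs. The control library held 24968329 UMIs and the case library 28232614 over all barcodes. Cells of at least 1000 UMIs were gated. VSMC-like cells had at least 0.5% of UMIs in VSMC markers, with fibroblast markers at most 40% of the UMIs of both lists. Fibroblast-like cells had at least 1.0% in fibroblast markers, at 90% or more of both. Neither class took cells with 3 or more markers of the endothelial, macrophage or Schwann list. Endothelial-like, macrophage-like and Schwann-like cells had at least 3 markers of 1 such list and lay under both limits. The limits were set after seeing the marker scores. Near a limit lay 120 control and 282 case VSMC-like cells (VSMC markers under 1.0% of UMIs or fibroblast share over 30%). For fibroblast-like cells these were 34 and 143. Markers of lymphocytes, adipocytes and mesothelial cells were summed but not gated, so they could give no class (0 to 41.1 CPM for lymphocytes).

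Sums of UMIs gave CPM. Exact 95% Poisson intervals, conditional binomial intervals of ratios and Clopper-Pearson intervals of shares were computed, and a count of 0 allows up to 3. With 1 library per group no p-value is given. A gene was compared at a mean of at least 20 CPM. Of the wider list, 1 gene is not reported here and was left out of its counts. Named genes were the 9 members, genes of the wider list at 100 CPM or more in a class, and the 3 genes most alike to each member over Leiden clusters (10000 UMIs per cell, 2000 variable genes, 30 components, 20 neighbours, resolution 0.8, seed 1). C2, C4b and Cfp, Spp1 and the other splitting genes fall outside that rule and were chosen with their values known. Scrublet called 6 cells as doublets, which stayed in. The members and lists were chosen with earlier results of these data known. Analyses ran in Python 3.11.15 with scanpy 1.11.5 and in R 4.3.3 with edgeR 4.0.16 (TMM). The intervals were run on simulated Poisson counts. These lack the spread between cells, so that run cannot show how the intervals hold for clumped UMIs. A total of 10 planned and 2 added alternatives was run.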

Additional observations from a re-analysis of the deposited data

Results flagged for a closer look

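C1s was higher in case VSMC-like cells and lower in case fibroblast-like cells, each beyond counting error. Its log2 ratio of case over control was 0.26 in the first and -0.12 in the second, a difference of 0.38 that was not tested, since each group is 1 library. Under the stricter gate the values were 0.06 and -0.07, and the intervals of the VSMC-like levels, 45.3 CPM (41.3 to 49.5) and 47.1 (43.2 to 51.3), overlapped. With classes from Leiden clusters the values were 0.45 and -0.17, and with TMM scaling 0.39 and -0.06.

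C1q was found in cells that entered no comparison. In the case library 14 cells outside the macrophage-like class held 5 or more C1q UMIs, against 5 such cells in the control library. The shares of cells, 0.291% (0.159 to 0.487) and 0.186% (0.0603 to 0.432), overlapped.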

How the results depend on the processing

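No paired analysis was possible because each group is 1 library, and for the same reason no replicate could be left out. Of 45 counts of genes past 2-fold under the alternatives, 38 kept the value of the report or came within 1.5 times of it. In endothelial-like cells the count moved from 1 to 0 with classes from Leiden clusters and with TMM scaling. It did so also with the mean over cells and with a mean of at least 100 CPM. Under the stricter gate, which for this class also admits cells with more VSMC and fibroblast RNA, it was 2. In macrophage-like cells it moved from 2 to 1 with a mean of at least 100 CPM, which removes C3, and to 1 with cells thinned to 1000 UMIs, where Cfd was at 0.86. The log2 ratio of Serping1 in endothelial-like cells turned from -1.12 to 0.15 with classes from Leiden clusters. The cause was not tested. Of 155 values of 15 log2 ratios, 129 stayed within the counting interval and 25 more moved beyond it. C1qa in macrophage-like cells ranged from 0.40 to 0.84, Cfd from 0.86 to 1.42 and C3 from 1.88 to 2.65, while C1qb ranged from -0.17 (thinned) to 0.61. Among ratios under 2-fold, the sign also turned under some setting for C1qb, C1r and Serping1 in macrophage-like cells, C1r in fibroblast-like cells and Serping1 in VSMC-like cells. After thinning, C1r and Serping1 had no UMI in control macrophage-like cells and gave no ratio. Leaving out the 5% of cells with the highest Scrublet scores, and letting macrophage markers decide alone, were chosen after seeing the data and kept every count. TMM moved all ratios by 0.13, 0.07, 0.29 and 0.00 in VSMC-like, fibroblast-like, endothelial-like and macrophage-like cells. Depth limits the Schwann-like class most (18 control and 45 case cells), which entered no count, and then the control endothelial-like (54) and macrophage-like (47) cells.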
